A study of Mus musculus with 5 samples.

Results

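Type 1 dendritic cells of the adult mouse heart were described here from 213 of 10961 single cells, and 153 of the 213 held RNA of Kit. A cell was taken as a member where the deposited natural-log values of Xcr1 and of Clec9a or Flt3 lay above 0, where C1qa lay below 2 and where Cdh5 was 0. The cells come from 5 droplet libraries of cardiac interstitial cells of adult mice, freed with collagenase II, cleared of cardiomyocytes and sorted on surface protein. The double-positive cells were further parted by CD45, which gave the library cKit+/DDR2+/CD45+ (1 sample) and its counterpart cKit+/DDR2+/CD45- (1 sample). The first is labelled CD45+ as a cell subtype, but its title names no CD45 and the protocol mentions only removal of CD45-bearing cells, so that selection for CD45 and omission of that removal cannot be told apart. cKit+/DDR2- has 2 libraries, called replicates 1 and 2, and cKit-/DDR2+ has 1. cKit is the receptor protein of the gene Kit, DDR2 a collagen receptor of fibroblasts and CD45 the leukocyte phosphatase of the gene Ptprc. No treatment or genotype is named for any sort, and strain, exact age and the number of hearts pooled are not given in the sources used here. All 213 members lie in libraries sorted for cKit protein, so the share with Kit RNA describes that gate. Of the members, 196 lie in cKit+/DDR2- replicate 2, so that nearly every value below describes 1 library. Cells of 1 library are not replicates. For that reason no significance test was made, and intervals, exact at 95%, cover counting error only.

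Type 1 conventional dendritic cells are bone marrow-derived antigen-presenting cells that take up dying cells and show their antigens to CD8 T cells, a route called cross-presentation. Their development depends on the transcription factors IRF8 and BATF3 and on the growth factor receptor FLT3. Mature cells carry XCR1, a chemokine receptor for the lymphocyte product XCL1, and CLEC9A, a receptor for actin filaments exposed on dead cells. KIT is the receptor tyrosine kinase for stem cell factor (gene Kitl), known from blood stem cells, mast cells, melanocytes and dendritic cell precursors, and FLT3 belongs to the same receptor family.

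In RefSeq's GRCm38.p6 annotation, the assembly that is also called mm10, Kit lies on chr5:75574987-75656722 and Flt3 on the same chromosome at chr5:147330741-147400489. Clec9a lies on chr6:129408862-129424764, Xcr1 on chr9:123852315-123862029, Itgae on chr11:73090505-73147449, Btla on chr16:45223705-45252895 and Batf3 on chr1:191098414-191108943. The 250 bases before the annotated start are shown for Kit and Xcr1, the genes on which the description of these cells turns, and for Jaml, whose window holds the interferon regulatory factor motif that was sought. They run 5′ to 3′ on the strand of the gene, from chr5:75574737-75574986 (plus strand), chr9:123862030-123862279 (minus strand) and chr9:45078933-45079182 (plus strand), and capitals mark the match to that motif.
Kit: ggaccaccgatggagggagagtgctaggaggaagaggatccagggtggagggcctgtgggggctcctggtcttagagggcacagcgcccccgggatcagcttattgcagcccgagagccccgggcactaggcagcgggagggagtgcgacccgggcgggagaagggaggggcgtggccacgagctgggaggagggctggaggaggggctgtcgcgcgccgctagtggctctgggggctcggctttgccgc
Xcr1: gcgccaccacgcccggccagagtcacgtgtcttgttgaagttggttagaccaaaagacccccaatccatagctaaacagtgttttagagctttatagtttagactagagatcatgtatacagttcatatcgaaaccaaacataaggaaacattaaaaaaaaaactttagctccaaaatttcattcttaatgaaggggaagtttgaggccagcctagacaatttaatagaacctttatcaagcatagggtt
Jaml: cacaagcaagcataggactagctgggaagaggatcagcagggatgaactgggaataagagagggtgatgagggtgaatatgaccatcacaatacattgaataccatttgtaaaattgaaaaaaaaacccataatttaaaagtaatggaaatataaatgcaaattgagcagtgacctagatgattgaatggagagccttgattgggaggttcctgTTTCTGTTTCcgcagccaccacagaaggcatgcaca

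The motif in capitals is GAAA, any 2 bases and GAAA, read on the minus strand of the Jaml promoter and written there as TTTCTGTTTC. It was sought on both strands in the 250 upstream bases of 27025 promoters and was found in 3.06% of them. Of 15 genes (Xcr1, Clec9a, Flt3 and the 12 furthest above macrophages), 10 were matched to a promoter, and 1 of the 10, Jaml, held it. The ETS-IRF motif (GGAA, any 2 bases, GAAA) was found in 2.37% of all promoters and in 0 of the 10, and the AP-1 motif TGANTCA in 6.87% of all and in P2ry10 among the 10. The joined AP-1 and IRF motif (TGANTCA, any 4 bases, GAAA), each of whose matches also counts as an AP-1 match, was found in 0.0962% of all promoters and in 0 of the 10. These are matches of letters in 1 window and say nothing of factor binding.

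The members were concentrated in the second of the 2 cKit+/DDR2- libraries. There they made up 196 of 3020 cells, or 6.49% (5.64 to 7.43). cKit+/DDR2- replicate 1 held 2 of 436 cells, or 0.459% (0.0556 to 1.65), and cKit+/DDR2+/CD45+ held 15 of 3898, or 0.385% (0.216 to 0.634). The intervals of the 2 libraries of the same sort do not overlap. No member was found among 1327 cells of cKit+/DDR2+/CD45-, which allows a share of up to 0.226%. Flt3 is not listed in that library, so the rule rested there on Clec9a beside Xcr1. In cKit-/DDR2+ (2280 cells) neither Xcr1 nor Flt3 is listed. No cell of that library could be a member, and its count of 0 gives no limit on the share. Genes not listed were set to 0.

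**Figure D1:**
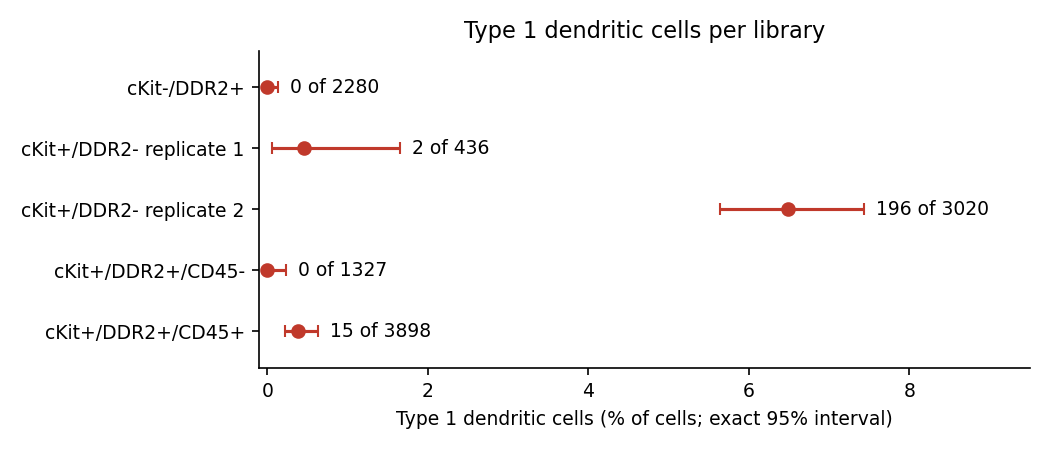
Share of cells taken as type 1 dendritic cells in each of the 5 libraries (points, % of cells), with exact 95% intervals as bars and the counts beside them. At 0 members the bar ends at the limit that a count of 0 allows. In cKit-/DDR2+ Xcr1 is not listed, so the 0 was fixed beforehand and its bar is no limit. cKit+/DDR2- replicate 2, at 6.49%, lies above the other 4 libraries, which reach 0.459% at most.

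Median UMIs (unique molecular identifiers, 1 per captured transcript) per cell ran from 7529 to 10972. The 2 cKit+/DDR2- libraries stood at 9427 and 9437.5. cKit+/DDR2- replicate 1 and cKit+/DDR2+/CD45+ share 190 cell barcodes, with a median of 12133.5 UMIs in the first and 622.5 in the second, while no other pair of libraries shares more than 3. Both members of replicate 1 carry such a barcode, and none of the 15 members of cKit+/DDR2+/CD45+ or of the 196 of replicate 2 does. The libraries also differ in sex-linked RNA. Xist was detected in 100 of the 196 members of replicate 2 and Y-linked genes in 0 of them, whereas all 15 members of cKit+/DDR2+/CD45+ and both of replicate 1 held Y-linked RNA and none held Xist. Whether the animals, the gate or the cells loaded set the difference in shares was not tested.

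The genes that chose the cells are given as a description only. Of the 196 members of cKit+/DDR2- replicate 2, 132 held both Clec9a and Flt3, 38 held Clec9a without Flt3 and 26 held Flt3 without Clec9a. Xcr1 rested on 1 UMI in 17 of them. C1qa was 0 in 155 members and above 0 in 41, with the highest 2 at 1.00 and 0.99 on the natural-log scale. No cell was kept out by C1qa alone, so the limit of 2 decided no membership by itself. The library held 241 cells with an Xcr1 UMI, and 45 of them were not members: 31 lacked both Clec9a and Flt3, 26 held Cdh5 and 4 held C1qa at 2 or more, with overlaps. Summed over the members, Xcr1 stood at 272 CPM (the group's UMIs of a gene, scaled to a common total), Clec9a at 132 CPM and Flt3 at 98.7 CPM.

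Some genes that the rule did not use are set beside the label of the cells. Ptprc, the CD45 gene, had UMIs in 98.0% of members, and Ddr2 in 1 of 196. Behind the DDR2+ gate of cKit+/DDR2+/CD45+, Ddr2 was found in 0 of 15 members and 17 of 3308 macrophages. Irf8 was detected in 99.5%, Naaa, a lysosomal amidase, in 100% and Wdfy4, needed for cross-presentation, in 99.5%. These genes vary with those that chose the cells and are no independent test of the name. At full depth Ptprc was also detected in 88.0% and Irf8 in 72.2% of the macrophages of cKit+/DDR2- replicate 2. With each cell thinned at random to 3000 UMIs, Ptprc was detected in 68.9% of members and 56.7% of macrophages, and Irf8 in 98.5% and 41.7%. Detection of Ptprc, or of Irf8 at full depth, thus says little about the name.

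Kit RNA was more abundant in these cells than in macrophages, in an endothelial gate or in the remaining cells of the same library as a whole. A few small sets of cells outside the members came near their level. The library was sorted for cKit, the protein of this gene, so its Kit levels do not describe such cells outside the gate. The members held 316 Kit UMIs, a level of 88.1 CPM (78.6 to 98.3). The other groups were macrophages, defined by C1qa at 3 or more with Csf1r above 0 (515 cells), an endothelial gate with Cdh5 above 0, Ptprc at 0 and C1qa below 2 (1809 cells), and the remaining 500 cells. Kit stood at 0.584 CPM (0.120 to 1.71) in macrophages, 11.1 CPM (9.58 to 12.9) in the endothelial gate and 31.2 CPM (26.3 to 36.9) in the remaining cells. The intervals of the 4 groups do not overlap. Outside the members, 17 cells with Clec9a or Flt3 but no Xcr1 stood at 84.5 CPM, 15 cells with Xcr1 but neither Clec9a nor Flt3 nor Cdh5 at 71.0 CPM. Over the 5 cells of the library with Xcl1, Kit stood at 112 CPM, from 5 UMIs in 1 of them. With 6.49% of the cells, the members held 49.3% of the 641 Kit UMIs of the library, against 28.4% in the endothelial gate and 21.8% in the remaining cells.

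Kit was detected in 140 of the 196 members, or 71.4% (64.6 to 77.6). It was detected in 3 of 515 macrophages (0.583%), in 7.24% of the endothelial gate and in 9.40% of the remaining cells. Members were deeper than the rest, with a median of 18861 UMIs against 9535 in macrophages, 9208 in the endothelial gate and 8635 in the remaining cells, so each cell was also thinned at random to 3000 UMIs. At that depth Kit was detected in 21.4% of members (15.9 to 27.8), in 0 of 501 macrophages, which allows up to 0.599%, in 3.07% of the endothelial gate and in 4.59% of the remaining cells. Thinning left out 14 macrophages, 49 cells of the endothelial gate, 86 remaining cells and no member. The order of the members above the other groups was the same at both depths.

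**Figure D2:**
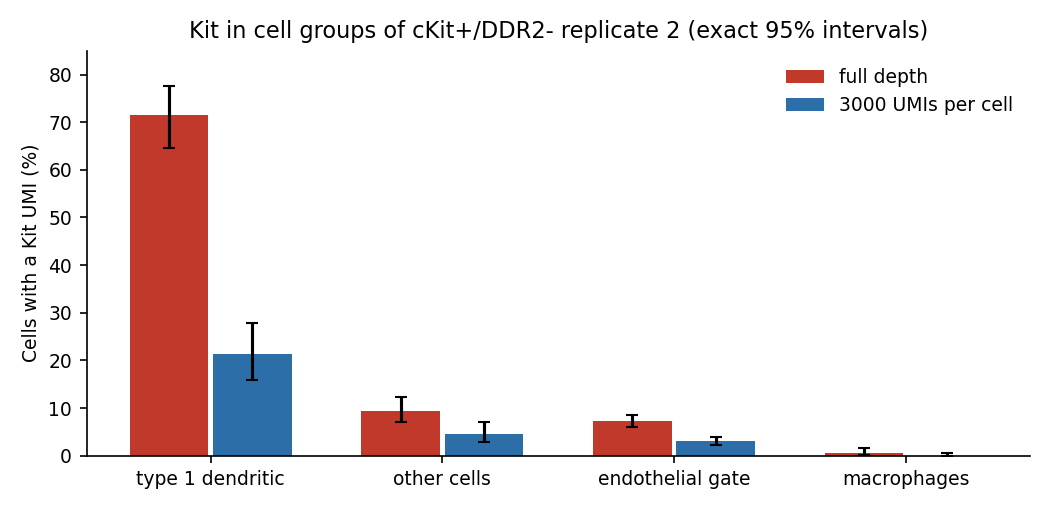
Share of cells with a Kit UMI (%) in 4 groups of cells of cKit+/DDR2- replicate 2, at full depth (red) and after thinning to 3000 UMIs per cell (blue), with exact 95% intervals; at 0 cells the bar ends at the limit that a count of 0 allows. Type 1 dendritic cells stand highest at both depths, at 71.4% and 21.4%.

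Within the members, 56 cells held 0 Kit UMIs, 53 held 1, 46 held 2, 18 held 3, 6 held 4, 12 held 5, 2 held 6 and 3 held 7. No gap in these counts parts Kit-positive from Kit-negative members. Over 255 genes whose summed CPM in the members lies within 10% of Kit's, the share of members with a UMI ran from 53.6% to 85.2%, with a median of 75.0%, and 199 of the 255 lay above Kit's 71.4%. Kit was thus detected in slightly fewer members than most genes of its level, within their range.

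The share with Kit differed little between kinds of member. It was 26 of 37 (70.3%) in members with an Mki67 or Top2a UMI, genes of dividing cells, and 114 of 159 (71.7%) in the others, at 90.2 and 87.5 CPM. It was 113 of 158 (71.5%) with a Flt3 UMI and 27 of 38 (71.1%) without. With Clec9a it was 124 of 170 (72.9%) and without it 16 of 26 (61.5%), and with Xist 74 of 100 (74.0%) against 66 of 96 (68.8%). The intervals of each pair overlap. The 26 Xcr1-positive cells with Cdh5, some of which also lacked Clec9a and Flt3, held Kit in 12 cells (46.2%) at 52.4 CPM, at a median of 16756.5 UMIs. The 15 with Xcr1 that lacked only Clec9a and Flt3 held it in 7 (46.7%), at a median of 12838 UMIs. In the 17 cells with Clec9a or Flt3 but no Xcr1, Kit stood beside 397 CPM of Cd209a, a type 2 dendritic cell and monocyte-derived cell lectin, and 16.9 CPM of Itgae.

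In cKit+/DDR2+/CD45+ Kit had 27 UMIs in the 15 members, or 70.1 CPM, and was detected in 12 of them. The 3308 macrophages of that library held 69 Kit UMIs, or 1.69 CPM, and 65 of them had a UMI. Median UMIs were 25105 in these members and 11207.5 in the macrophages. Thinned to 3000 UMIs, 0 of the 15 members held Kit, which allows up to 20%, and 14 of 3259 macrophages did; at 5000 UMIs it was 6 of 15 and 21 of 3226. The single Kit UMI in cKit+/DDR2- replicate 1 members lay in 1 of the 2 cells. In both libraries with enough members to sum, the Kit level in CPM was above that of the macrophages beside them.

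Against macrophages of the same library, the members were set apart by dendritic cell surface molecules and by lower levels of most complement and scavenger genes, of which C1qa chose both groups. The sums were 3587812 UMIs over 196 members and 5140229 UMIs over 515 macrophages. Of 3055 genes with at least 50 CPM in 1 of the groups, 279 were at least 2-fold higher in members (9.13%) and 599 at least 2-fold lower (19.6%), 28.7% in all, on the scale of log2 of the ratio after adding 1 CPM. The interval of the ratio lay wholly beyond 2-fold for 226 and 497 of them. The median over all genes tested was -0.22. Genes used to choose either group were left out of these counts, but all other genes vary with them and the counts are a description. At 3000 UMIs per cell the counts were 309 higher and 630 lower of 3111.

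The 12 genes with the largest ratios were led by Sept3, a septin of the cytoskeleton, and Btla, an inhibitory receptor of lymphocytes and dendritic cells. Sept3 stood at 261 CPM in members and 0.584 CPM in macrophages, a log2 ratio of 7.37. Btla stood at 245 and 0.584 CPM (7.28), Cd24a, a glycosylated adhesion protein, at 423 and 2.33 CPM (6.99), and Itgae, the CD103 integrin chain, at 219 and 0.973 CPM (6.80). All 4 are on a list of genes known from type 1 dendritic cells, as is Gcsam, at 84.5 and 0.195 CPM. That list was chosen with earlier results of these data known, so a place on it is no outside support. Each was found in 72.4% of members or more and in at most 1.17% of macrophages.

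Epithelial junction and adhesion genes stood among the 12. Cldn1, a tight junction claudin, was at 125 CPM in members and 0.195 CPM in macrophages, and Epcam, an epithelial adhesion molecule, at 130 and 0.778 CPM. Each was detected in 74.0% of members. Jaml, a junctional adhesion molecule of leukocytes, stood at 515 and 5.64 CPM and was found in 98.5% of members. P2ry10, a lysophospholipid receptor, at 105 CPM in members and 0 UMIs in macrophages, was at least 181-fold higher. Kit came 10th, 151-fold higher without the added CPM, with a log2 ratio of 5.81 (interval of the plain ratio 5.68 to 9.52). The unnamed gene model AC163354.1 closed the list at 52.4 and 0.195 CPM.

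In the other direction Mrc1, the mannose receptor, stood at 0.836 CPM in members and 787 CPM in macrophages (log2 ratio -8.74). The complement genes C1qc (6.13 and 2585 CPM) and C1qb (11.4 and 3703 CPM) followed C1qa, which chose both groups. Fcgr3, an Fc receptor, stood at 1.67 and 643 CPM, Cx3cr1, the fractalkine receptor, at 0.836 and 421 CPM, and F13a1, a transglutaminase of resident macrophages, at 1.67 and 773 CPM. The transcription factors Zeb2 (1.39 and 491 CPM) and Maf (1.95 and 598 CPM) were among the 12 lowest, as were Cybb, Pmp22, Pf4 and Cxcl2.

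**Figure D3:**
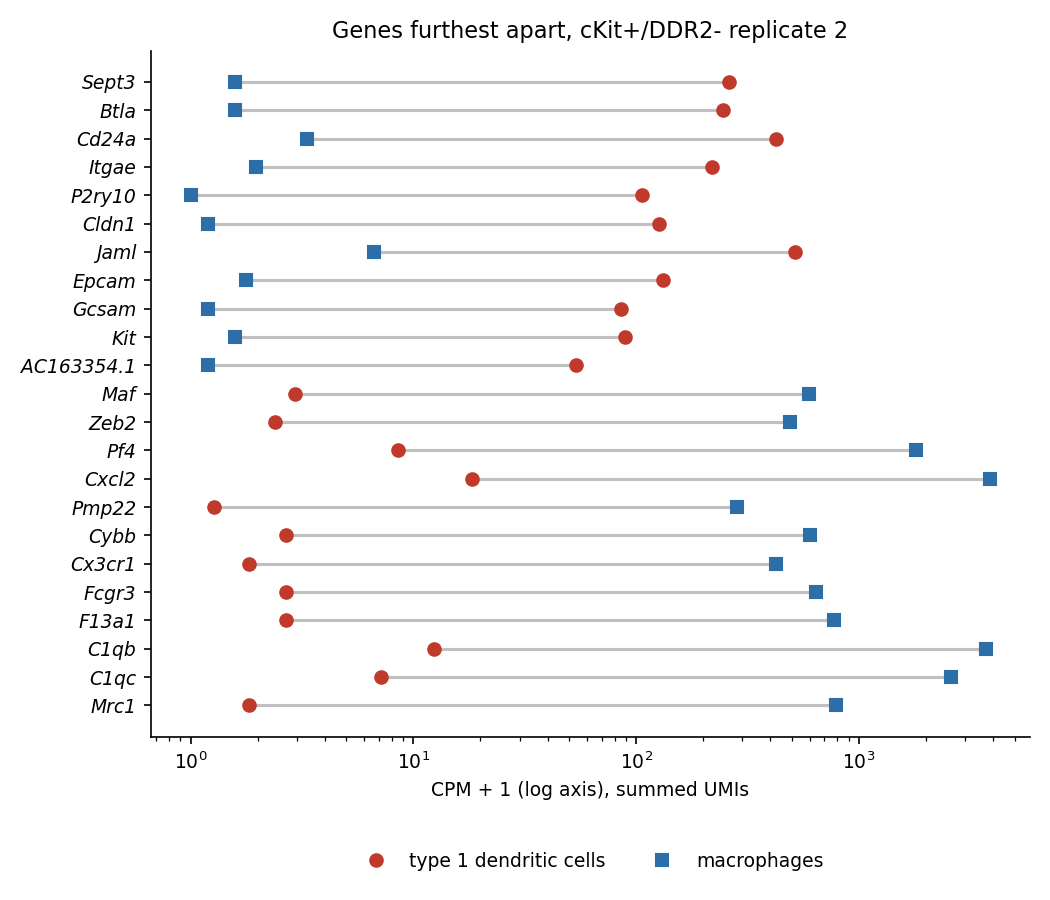
CPM + 1 on a log axis, from summed UMIs of type 1 dendritic cells (red circles) and macrophages (blue squares) of cKit+/DDR2- replicate 2, for the genes named in the text among those furthest apart in each direction; P2ry10 has 0 UMIs in macrophages. The genes of the upper block lie between 52.4 and 515 CPM in dendritic cells, and those of the lower block at 17.3 CPM or less.

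Transcription factors and uptake genes of the lineage were mostly higher. Of 17 tested genes on the type 1 dendritic cell list, 16 were at least 2-fold higher and none lower, with a median log2 ratio of 4.35. Over all genes tested, 9.13% were higher and 19.6% lower. These shares are the background for this and every later list count against macrophages of this library. Irf8 stood at 1847 CPM in members and 172 CPM in macrophages, Batf3 at 150 and 49.6 CPM, and Zbtb46, a factor of conventional dendritic cells, at 63.5 and 1.56 CPM. Naaa stood at 2136 and 66.5 CPM, Wdfy4 at 481 and 26.1 CPM and Tlr3, the sensor of double-stranded RNA, at 177 and 9.53 CPM. Id2, which the lineage needs, was the exception at 997 and 913 CPM (log2 ratio 0.13). The list overlaps in biology with the genes that chose the cells, and was chosen with earlier results of these data known. Its direction is therefore not independent of the choice.

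Antigen presentation on MHC class II was higher in most genes, and the lysosomal proteases of the same list were lower. Of 13 tested genes, 8 were called higher and 2 lower, with a median of 1.31, against 9.13% and 19.6% over all genes tested. H2-Aa stood at 9638 CPM in members and 3922 CPM in macrophages, H2-Ab1 at 8805 and 3548 CPM, and Cd74, the invariant chain, at 20098 and 11656 CPM, short of 2-fold. The largest ratio was that of H2-Oa, which with H2-Ob forms an inhibitor of peptide loading: H2-Oa stood at 114 and 2.33 CPM and H2-Ob at 109 and 9.14 CPM. Ciita, the class II transactivator, stood at 179 and 61.1 CPM. The proteases Ctss (361 and 936 CPM) and Lgmn (8.36 and 479 CPM) were lower.

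For class I and cross-presentation, 6 of 15 tested genes were higher and 1 lower, with a median of 0.54. Over all genes tested 9.13% were higher and 19.6% lower. The peptide transporter genes Tap1 (139 and 37.7 CPM) and Tap2 (121 and 48.4 CPM) and the immunoproteasome subunits Psmb8 (868 and 309 CPM) and Psmb9 (596 and 115 CPM) were higher, as were Psme1 and Rab43. Rab43, a GTPase tied to cross-presentation in this lineage, stood at 53.2 and 18.1 CPM. Cybb, the catalytic chain of the phagosomal NADPH oxidase, was lower, at 1.67 and 600 CPM, with UMIs in 2.04% of members and 95.3% of macrophages.

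Of 18 genes of KIT's signalling relays, 9 were tested, 1 was called higher and none lower, with a median of 0.00. Over all genes tested 9.13% were higher, so that the 1 call is near the background. The one called was Fyn, a Src-family kinase, at 99.8 CPM in members and 48.2 CPM in macrophages (log2 ratio 1.03, interval 0.81 to 1.29). Lyn, another such kinase, stood at 232 and 325 CPM, the adaptor Grb2 at 178 and 193 CPM, the ubiquitin ligase Cbl at 167 and 128 CPM and the phosphatase Inpp5d at 216 and 148 CPM. Among other growth factor and cytokine receptors, 3 of 7 tested genes were lower and none higher, against 19.6% lower over all genes tested. The GM-CSF receptor chains Csf2ra (202 and 212 CPM) and Csf2rb (82.2 and 61.1 CPM) lay near macrophages, while Tgfbr1, Tgfbr2 and Il6ra were lower.

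Of 19 listed genes of dendritic cell maturation, 3 reached 50 CPM, and none of these was 2-fold apart. Ccr7, which guides mature cells to lymph nodes, had 0 UMIs in the members, as had Pdcd1lg2 and Socs2, which allows up to 0.836 CPM each. Costimulatory genes were present in both: Cd83 stood at 395 and 530 CPM and Cd86, a costimulatory ligand, at 219 and 322 CPM. Fscn1, an actin bundler of migrating cells, stood at 0.557 and 10.5 CPM.

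Inflammatory cytokines and chemokines were lower in 9 of 10 tested genes, with a median of -5.11. Cxcl2, a neutrophil chemokine, stood at 17.3 CPM in members and 3865 CPM in macrophages, Ccl3 at 10.0 and 1287 CPM, Tnf at 13.7 and 165 CPM and Il1b at 52.7 and 381 CPM. Cxcl16 was not called (177 and 276 CPM). Of the chemokine receptors, Ccr2 was higher (226 and 95.9 CPM) and Ccr1, Cx3cr1, Cxcr4 and S1pr1 were lower. Cxcr3, a receptor for interferon-induced chemokines, lay just under the 50 CPM minimum at 49.6 CPM in members and 0.973 CPM in macrophages.

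Receptors for dead cells and scavenging were lower in 10 of 11 tested genes, with a median of -6.25. Mertk and Fcgr1 had 0 UMIs in the members and were at least 90.5-fold and 85.4-fold lower than in macrophages. Axl stood at 3.07 and 159 CPM and Stab1 at 1.95 and 224 CPM. Timd4, a phosphatidylserine receptor, stood at 65.2 and 64.6 CPM, detected in 54.1% of members. Cd36 differed least among the lower genes, at 215 and 452 CPM, and was detected in 93.4% of members.

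**Figure D4:**
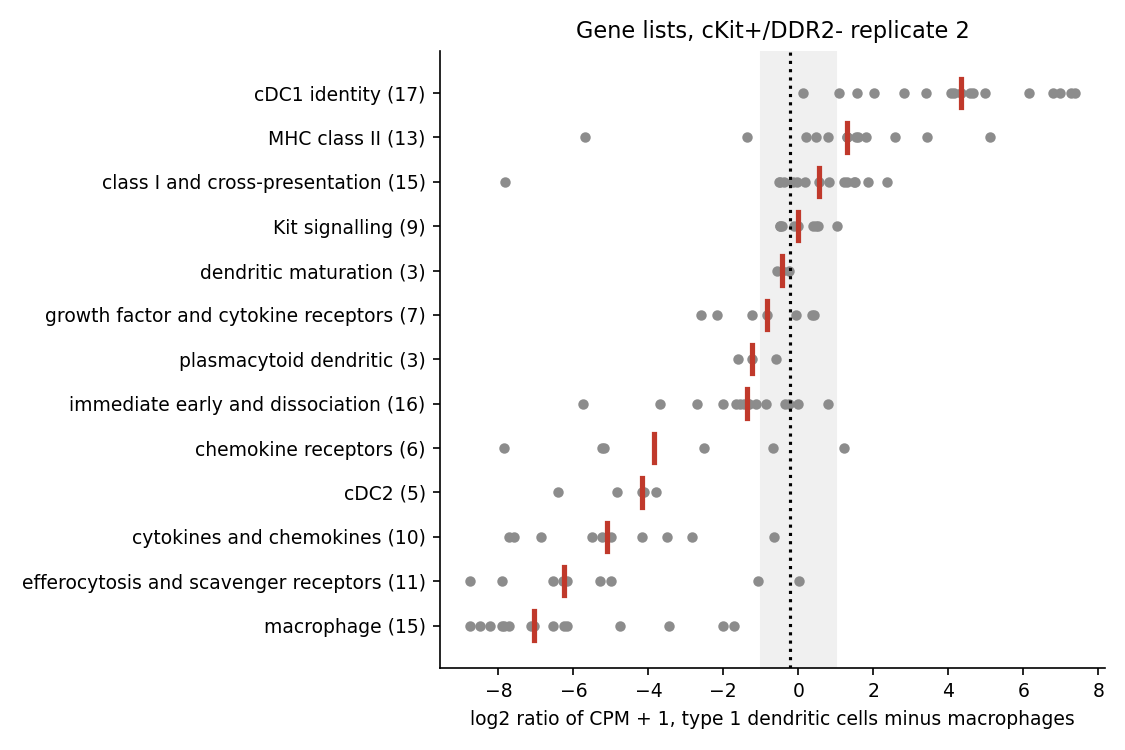
Log2 ratio of CPM + 1, type 1 dendritic cells minus macrophages of cKit+/DDR2- replicate 2, for the tested genes (grey points, number in brackets) of each list with at least 3 of them; red bars are list medians, the dotted line the median of all tested genes (-0.22) and the grey band the range within 2-fold. List medians run from -7.06 for macrophage genes to 4.35 for type 1 dendritic cell genes.

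Markers of macrophages and of type 2 dendritic cells were lower than in macrophages but not at 0, and those of mast, lymphoid and blood progenitor cells were at or near 0. All 15 macrophage markers were lower, their summed level 1199 CPM in members against 34685 CPM in macrophages. Per cell this sum ran from 172 to 3453 CPM in members and from 4827 to 98912 CPM in macrophages. The ranges do not overlap, but C1qa chose both groups, and C1qb and C1qc of this list vary with it. The gap follows in part from the choice of cells and is a description only. Lyz2, a lysozyme, had UMIs in all 196 members (874 and 9522 CPM), and Adgre1, the F4/80 gene, in 27.0% of them. The plasmacytoid sum of 379 CPM in members and 676 CPM in macrophages consisted mostly of Pld4, a nuclease, at 242 and 368 CPM. The type 2 dendritic genes Sirpa, Mgl2, Clec10a, Itgam and Cd300a were lower in 5 of 5 tested genes, with a sum of 83.6 and 1485 CPM over the list. Macrophages held these genes too, so a lower level does not part members from type 2 dendritic cells. Cd209a of that list was under the minimum of 50 CPM. It stood at 40.9 CPM in the 26 members without a Clec9a UMI and at 0.946 CPM in the 170 with one. Per member the sum of the list ran from 0 to 3181 CPM, with a median of 46.9 CPM. How many of the 26 hold Cd209a is not given here, so 40.9 CPM need not describe a typical cell among them. None of 9 mast cell genes reached 50 CPM; Mcpt4, Tpsb2 and Ms4a2 were at 0 and Cpa3, a mast cell protease, had 1 UMI. Hdc, the histidine decarboxylase, made up most of the mast cell sum of 9.76 CPM, at 7.53 CPM. Of 12 lymphoid genes 8 were at 0, and the blood progenitor genes summed to 4.46 CPM.

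RNA of endothelial cells, whose gate holds 1809 of the 3020 cells, was present at a low level. The endothelial sum was 90.9 CPM in members and 211 CPM in macrophages, and per cell it reached 356 and 13190 CPM. Cdh5 had to be 0 in members but not in macrophages, so this contrast follows in part from the choice of cells. Vwf stood at 38.7 CPM in members, 31.3 CPM in macrophages and 1860 CPM in the endothelial gate. Vwf was detected in 48.0% of members and 18.4% of macrophages at full depth, and in 12.2% and 7.39% at 3000 UMIs. Dcn, a fibroblast proteoglycan, was detected in 19.4% and 20.4% at full depth and in 2.55% and 7.19% at 3000 UMIs. The fibroblast sum of 318 CPM in members and 261 CPM in macrophages consisted mainly of Gsn, an actin-severing protein also made by immune cells. Depth and composition moved with the comparison as well: median genes per cell were 3540.5 in members and 2702 in macrophages, ribosomal protein genes took 23.3% and 14.0% of UMIs and mitochondrial genes 3.47% and 3.35%. Immediate early and dissociation genes were lower in 11 of 16, with a median of -1.36, among them Egr1 (156 and 1025 CPM) and Ier3 (29.0 and 1615 CPM), while Fos stood at 1402 and 1790 CPM. Their part in the gene differences was not tested.

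Of the 196 members, 37 held RNA of Mki67 or Top2a. Mki67 was detected in 14.3% of members and 3.30% of macrophages at full depth, and in 4.59% (2.12 to 8.54) and 1.20% (0.441 to 2.59) at 3000 UMIs, where the intervals overlap. Top2a was detected in 8.67% and 4.47% at full depth and in 1.53% and 1.80% at 3000 UMIs. Of the 20 cell cycle genes, Pcna and Stmn1 reached 50 CPM in 1 of the groups, and neither was 2-fold apart. In cKit+/DDR2+/CD45+, 9.77% of genes were 2-fold higher in members and 23.1% lower. Mki67 stood there at 70.1 CPM in members and 16.7 CPM in macrophages, Top2a at 101 and 20.9 CPM and Stmn1 at 379 and 112 CPM. Mcm5 and Mcm7 were also called higher, while Pcna and Mcm3 were tested and not called. Mki67 rested there on 3 of 15 members and Top2a on 6, and at 3000 UMIs on 2 and 3. At full depth Stmn1 rested on 7 members, Mcm5 on 8 and Mcm7 on 5. Among 13 interferon response genes Ifi205, a DNA-binding interferon-inducible protein, stood at 117 CPM in members and 2.72 CPM in macrophages. Ifit1, Ifit3 and Rsad2 had 0 UMIs in members.

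The 15 members of cKit+/DDR2+/CD45+, from a library of another sort and other sex-linked RNA, gave a similar picture beside 3308 macrophages. Of 3174 genes tested there, 310 (9.77%) were higher and 733 (23.1%) lower, or 32.9% in all. The 2 comparisons share no cells. Of the 279 higher genes of cKit+/DDR2- replicate 2, 204 were higher there too, which is 73.1% of the 279 and 65.8% of the 310. Of the 599 lower genes 516 were lower there, or 86.1% of the 599 and 70.4% of the 733. Only 238 of the 279 and 569 of the 599 reached the minimum there, and none of those was called in the opposite direction. Both groups of cells were chosen by the same rule in both libraries.

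Single genes had like levels in the 15 cells. Sept3 stood at 286 CPM, Btla at 288 CPM, Cd24a at 428 CPM, Itgae at 205 CPM and Jaml at 449 CPM, each at 3.24 CPM or less in the macrophages beside them. Irf8 stood at 1815 CPM, Batf3 at 132 CPM, Naaa at 2316 CPM and H2-Oa at 158 CPM. Macrophage genes were not as low as in cKit+/DDR2- replicate 2: C1qb stood at 125 CPM in these members against 11.4 CPM, and Pf4 at 90.9 against 7.53 CPM. In this library 3308 of 3898 cells were macrophages, against 515 of 3020, and the part of their RNA in these levels was not tested. Mertk had 0 UMIs in the 15 cells.

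Members of cKit+/DDR2- replicate 2 with and without a Kit UMI lay close together in most genes. The 140 Kit-positive members held 2652688 UMIs with a median of 19225 per cell, and the 56 Kit-negative members 935124 UMIs with a median of 18234. Of 2395 genes with at least 50 CPM in 1 of the groups, 5 were at least 2-fold higher in Kit-positive members (0.209%) and 0 lower (0.0%). For 2350 genes (98.1%) the groups lay within 1.5-fold, and the median log2 ratio was 0.01.

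The 5 genes were Hes1, Gapvd1, Serpinb6b, Tbxas1 and Aplp2. Hes1, a transcriptional repressor downstream of Notch, stood at 50.9 CPM in Kit-positive and 18.2 CPM in Kit-negative members (log2 ratio 1.44, interval 0.75 to 2.31). It had 135 and 17 UMIs, and the highest 2 cells of all members held 17 and 16. Gapvd1, an endocytosis regulator, stood at 52.0 and 22.5 CPM (1.18), Serpinb6b, a serpin, at 73.9 and 33.2 CPM (1.13), Tbxas1, thromboxane synthase, at 63.7 and 29.9 CPM (1.06) and Aplp2, an amyloid precursor-like protein, at 78.4 and 38.5 CPM (1.01). The interval of each of these 5 ratios reaches below 2-fold. Lowest was Bhlhe40, a transcription factor, at 62.6 and 109 CPM (-0.79), followed by Rbfa and Atxn10, then Timeless, of DNA replication, at 50.1 and 81.3 CPM, and Bfar and Zmynd11. Sap18 lay just short of 2-fold, at 96.5 and 49.2 CPM (0.96). Kit-positive members were also taken as the 38 with a Kit UMI in another random draw of 3000 UMIs per cell. The draw behind the share of 21.4% had 42. The count of genes was then also 5, but with 3 higher and 2 lower, so these are not the same calls.

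**Figure D5:**
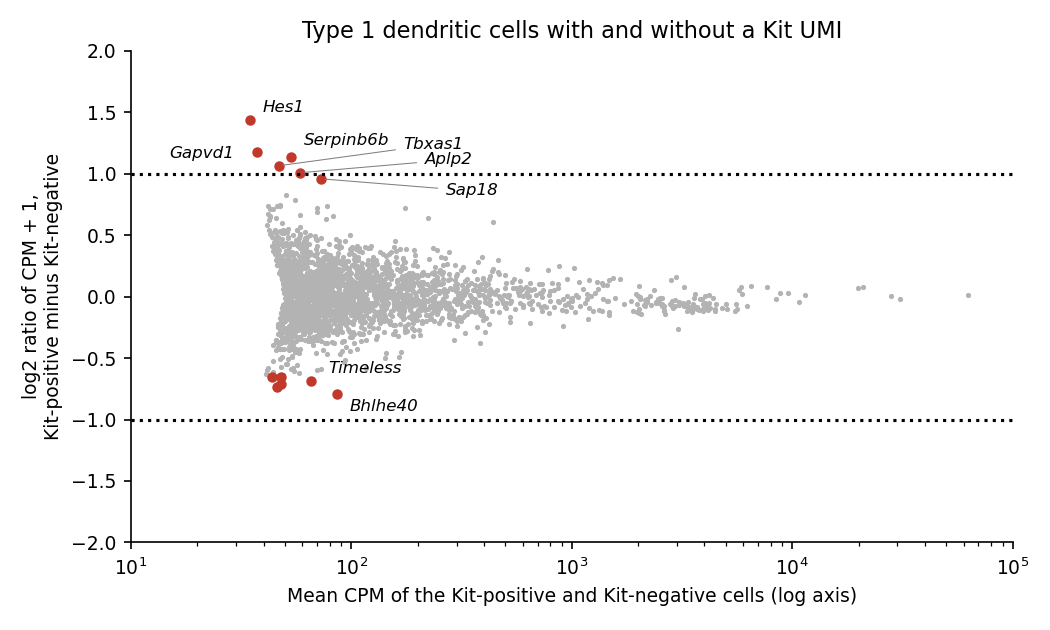
Log2 ratio of CPM + 1 between 140 Kit-positive and 56 Kit-negative type 1 dendritic cells of cKit+/DDR2- replicate 2, against the mean CPM of both groups (log axis); grey points are tested genes, red points the 6 largest ratios each way, and dotted lines mark 2-fold. Beyond the lines lie 5 genes, all higher in Kit-positive cells and all under 100 CPM.

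The tested genes of the lineage and of KIT's own pathway lay within 2-fold, as did all but 5 of the 2395 genes tested (0.209% called), so these counts are near the background. Xcr1 stood at 285 and 237 CPM in Kit-positive and Kit-negative members, Clec9a at 137 and 118 CPM, Flt3 at 99.1 and 97.3 CPM and Irf8 at 1834 and 1882 CPM. Btla differed most on the lineage list, at 271 and 173 CPM (log2 ratio 0.64, interval 0.40 to 0.90). Of 9 tested genes of the Kit signalling list and 17 of the lineage list none was called, with medians of 0.10 and 0.03. H2-Aa stood at 9687 and 9499 CPM and Ccr2 at 221 and 242 CPM. Csf2rb stood at 74.6 and 104 CPM (-0.47, interval -0.83 to -0.11). The macrophage sum was 1161 CPM in Kit-positive and 1306 CPM in Kit-negative members, and the mast cell sum 11.7 and 4.28 CPM.

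RNA of Kitl and Xcl1, ligands of KIT and XCR1, was found mainly or wholly in other cells of the library, and that of the FLT3 ligand in all 4 groups. Kitl, stem cell factor, had 1 UMI in the members (0.279 CPM) and stood at 26.3 CPM in macrophages, 44.0 CPM in the remaining cells and 167 CPM (161 to 174) in the endothelial gate, where 51.3% of cells had a UMI. Flt3l, the ligand of FLT3, stood at 3.07 CPM (1.53 to 5.49) in members, 6.03 CPM (4.10 to 8.56) in macrophages, 7.35 CPM in the endothelial gate and 9.37 CPM in the remaining cells. Xcl1 had 0 UMIs in members and macrophages, 1 in the endothelial gate and 270 in the remaining cells. In all, 5 cells of the library held Xcl1, of which 4 held Ncr1 and 4 Nkg7, genes of natural killer cells, and 0 held the T cell gene Cd3e.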

How the data were processed

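Droplet 3′ libraries (v3.1 chemistry) were processed with Cell Ranger (version not given), mm10 and Seurat 4.0.4, per the submitters' processing notes. Values in the deposited tables are natural logs, ln(1 + x), where x is a gene's UMIs per 10000 UMIs of its cell. UMIs were recovered from them, and 100% of values were whole within 0.01. Genes not listed were set to 0.

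Groups of cells were summed to CPM with Python 3.11.15, numpy 2.4.6, scipy 1.17.1 and pandas 2.3.3, and figures were drawn with matplotlib 3.10.9. Ratios are log2 of CPM + 1, tested at 50 CPM or more in 1 group and called at 2-fold. Intervals are exact: Poisson for CPM, Clopper-Pearson for shares, conditional binomial for the ratio without the added CPM. A count of 0 was bounded at 3 counts, per group. Thinning drew 3000 UMIs per cell (seed 1). Each group was drawn on its own for shares of cells, and members together with macrophages for counts of genes, so these draws differ. No doublet caller was run. The scripts were tested on simulated data.

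Named were Kit, the sort and selection genes, the 12 largest ratios each way against macrophages and 6 each way by Kit, from genes with at least 20 UMIs in the higher group (without mitochondrial, ribosomal protein, haemoglobin, sex-linked, Gm-numbered, Rik and selection genes), and members of 24 lists (286 genes, 272 listed in cKit+/DDR2- replicate 2). Not every gene named by this rule has its values printed, and 1 is not reported here. Members, rule and lists were chosen with earlier results of these data known. Flt3l, Xcl1 and the cells without Xcr1 fall outside that rule and were added after values were seen. Promoters come from RefSeq GRCm38.p6.

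The remaining lists gave these values: 1 of 5 listed monocyte genes was tested and called higher (Ccr2), plasmacytoid dendritic genes were lower in 2 of 3 tested, and neutrophil, erythroid and pericyte genes summed to 0.836, 0.279 and 1.39 CPM in members. Alternatives covered the selection rule, the depth, the library total, the added CPM, the minimum level, the macrophage rule and the libraries used.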

Additional observations from a re-analysis of the deposited data

How the results depend on the processing

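Of the share of members in cKit+/DDR2- replicate 2 (6.49%), 2 settings moved the value: 4.37% with both Clec9a and Flt3 required and 5.13% with C1qa at 0. The share of Kit-positive members follows depth by construction, from 6.63% at 1000 UMIs and 21.4% at 3000 to 33.3% at 5000 and 71.4% at full depth. The Kit log2 ratio against macrophages stayed above 4 in all 12 alternatives, with 4.06 after adding 5 CPM and 4.72 in cKit+/DDR2+/CD45+, with or without the barcodes it shares. The highest, 6.48, came from the 31 macrophages at least as deep as the lower quartile of members. These held no Kit UMI, so the value depends on the added CPM. The interval of its plain ratio starts at 3.76 and has no upper limit. The alternatives in cKit+/DDR2+/CD45+ and with deeper macrophages were chosen after seeing the data.

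The 878 genes apart from macrophages became 1534 at a minimum of 20 CPM and 3534 with no minimum, as more genes are tested (5860 and 14824), and lay between 835 and 1067 in the other 13 alternatives. Leaving Gm42418, Lars2, mitochondrial and ribosomal protein genes out of the total raised every ratio by 0.17 before the added CPM, and 408 genes were then higher and 631 lower of 3866. Of the 279 higher and 599 lower genes, 277 and 522 kept their call and 0 changed direction. The median of the chemokine receptors moved from -3.85 to -1.68 there, with 8 genes tested in place of 6.

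The 5 genes that set Kit-positive apart from Kit-negative members lie near the threshold, and the count moved in 9 of 12 alternatives. It was 13 with both Clec9a and Flt3 required, 8 with C1qa at 0, 10 with the smaller total and 3 without members above the 95th percentile in UMIs, as a mean over cells or after adding 5 CPM. It was 49 at a minimum of 20 CPM (40 higher, 9 lower), 1597 with no minimum (905 and 692) and 211 after thinning (118 and 93), where few UMIs support each gene. With Kit called after thinning to 3000 UMIs it stayed at 5, now 3 higher and 2 lower. The cause was not tested. No paired analysis was possible because no label links the libraries by animal, and their replicate numbers only follow accession order. No result comes from a test. With 1 library holding nearly all members, the spread between animals is unknown.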

Other observations

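The 17 cells of cKit+/DDR2- replicate 2 with Clec9a or Flt3 but no Xcr1 differed from the members in more than Cd209a. Irf8 stood at 524 CPM there against 1847 CPM in members, and Naaa at 816 against 2136 CPM. Their median was 12961 UMIs, and 7 of them (41.2%, 18.4 to 67.1) held Kit. Among the members themselves, Cd209a stood at 40.9 CPM in the 26 without a Clec9a UMI and at 0.946 CPM in the 170 with one. Itgae stood at 217 and 219 CPM in the same groups. Cd209a also stood at 24.0 CPM in the 37 members with an Mki67 or Top2a UMI and at 1.04 CPM in the 159 others. Whether few cells carry these Cd209a values was not tested. Members with an Xist UMI held Naaa at 2444 CPM and those without at 1798 CPM.

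The 5 cells with Xcl1 held 271 UMIs of it, 6057 CPM of their summed UMIs. They held 26 UMIs of Ptprc in 4 cells, 19 of Trbc2, a T cell receptor constant gene, in 3 cells and 5 of Kit in 1 cell, and 0 of Il7r.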
